A study of Mus musculus with 15 samples.

Results

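The bait was a HindIII site at Pparg, and the 2 day 6 libraries of that bait were set against its 2 day 0 libraries, 4 of the 27 libraries deposited for the series. The assay, 4C-seq (circularised chromosome conformation capture read by sequencing), counts, for each HindIII site of the genome, the reads of DNA ligated to 1 chosen bait site after cross-linking. The 4 libraries compared are of 3T3-L1, a mouse fibroblast line that turns into fat cells in culture, so the results are those of 1 cell line. Fits that estimate the spread over all 9 Pparg libraries also held those of days 1 and 2 and 1 library of a B lymphocyte line. Day 6 cells, which the labels call a mature adipocyte, had been exposed from day 0 to 1 μM dexamethasone, 0.5 mM 3-isobutyl-1-methylxanthine and 1 μg/ml insulin in 10% foetal calf serum. They received serum and insulin from day 2, and serum alone later. Day 0 cells, labelled preadipocyte, were confluent cells at the point where that exposure began. Both groups were cross-linked in 2% formaldehyde over 10 min. HindIII digestion, a first ligation, DpnII digestion and a circularising ligation followed. No RNA or protein was read in this assay, so the labelled stages could not be checked against markers.

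Pparg encodes a nuclear receptor of the peroxisome proliferator-activated family, which binds DNA with a retinoid X receptor and switches on genes of lipid uptake and storage. It is the factor fat cell formation depends on, and its own transcription turns on as 3T3-L1 cells differentiate. Chromosomes fold so that a site meets near sites of its own chromosome most often, and distant or other-chromosome sites mostly where both lie in the same kind of chromatin, active or silent. A 4C profile of Pparg therefore shows a steep peak at the bait and a low, patchy signal elsewhere.

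In all 9 Pparg libraries the most-read site was chr6:115369246-115369251 in the build mm9. In the RefSeq order of genes (GRCm38.p6), Timp4, which encodes a tissue inhibitor of metalloproteinases, Syn2, which encodes a synaptic vesicle protein, and Tamm41, which encodes an enzyme of mitochondrial cardiolipin synthesis, come next to Pparg on the low-coordinate side. The gene table is of another build, so the bait was not placed against the exons of Pparg. RefSeq lists several starts for Pparg, all on the plus strand. The 250 bases before the first of them, chr6:115360894-115361143, and before the last, chr6:115421816-115422065 (both GRCm38.p6), are shown because they are the promoters of the gene the bait stands for.

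first start: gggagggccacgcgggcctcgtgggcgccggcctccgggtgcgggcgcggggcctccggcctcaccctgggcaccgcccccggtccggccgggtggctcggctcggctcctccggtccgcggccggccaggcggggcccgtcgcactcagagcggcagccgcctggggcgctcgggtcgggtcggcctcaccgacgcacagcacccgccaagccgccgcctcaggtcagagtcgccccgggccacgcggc
last start: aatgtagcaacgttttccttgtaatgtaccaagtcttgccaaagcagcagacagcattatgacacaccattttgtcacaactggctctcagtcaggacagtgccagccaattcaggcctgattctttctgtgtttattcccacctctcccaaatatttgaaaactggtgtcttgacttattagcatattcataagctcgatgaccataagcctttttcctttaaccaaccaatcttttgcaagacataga

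G and C made up 82.4% of the bases before the first start and 40.8% before the last. Capitals were reserved for the sites of the enzymes used, AAGCTT for HindIII and GATC for DpnII, which read the same on both strands and do not overlap. Neither window holds any. Over 32851 promoter windows of the same length in the table, 6.22% held AAGCTT and 41.9% held GATC.

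Each file lists reads at 823355 HindIII sites. After the 5 chromosome 6 sites within 10 kb of the bait were left out, 47602 sites remained on chromosome 6 and 775748 on other chromosomes. Day 6 libraries held 1718012 and 116031 reads, and day 0 libraries held 2473742 and 296478, replicate 1 first in each case. Much of a day 6 library was the bait itself. The bait site took 52.0% and 61.4% of reads on day 6, against 9.14% and 5.83% on day 0, and the groups did not overlap. Outside the zone there remained 746110 and 42094 reads on day 6, and 2041336 and 259273 on day 0. Where depth matters, values are therefore given at 42094 reads in each library, the number of the shallowest one, as the exact expectation of drawing that many reads. This share of bait reads moved with day in every result that follows, and its part in them was not tested.

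Replicate numbers stand only in the deposited names, and nothing says that replicates are separate cultures, so every p-value measures the spread between libraries. Libraries of different days shared more captured sites than independent libraries would. A captured site is one with at least 1 read. Among other-chromosome sites, the replicate 2 libraries of the 4 days and the B cell library had 8.82 to 22.6 times as many captured sites in common, pair by pair, as independent placement gives. The 26 other pairs had 1.72 to 6.66 times as many. Day 6 replicate 2 and day 0 replicate 2 had 625 such sites in common, 13.6 times the independent number, and the sites had unlike read numbers in the 2 libraries (correlation of log reads -0.37). Sites of 1 read in day 6 replicate 2 were found in day 0 replicate 2 in 29.0% of cases, and sites of 2 to 3 reads in 9.18%. Day 6 replicate 1 stood in the same relation to day 1 replicate 1 (6.66 times, correlation -0.39) but not to day 0 replicate 1 (2.86 times, correlation 0.12). Day 0 replicate 1 and day 2 replicate 1 had 3.84 times the independent number in common (correlation -0.26). On chromosome 6 over 20 Mb from the bait, replicate 2 of days 6 and 0 had 3.58 times the independent number in common at matched depth. The other pairs among the 4 compared libraries had 2.72 to 3.15 times. What the libraries share was not tested further. On other chromosomes, captured sites at matched depth, the count of chromosomes without overlap and windows of 500 kb are also given without the shared sites. For this the shared sites were left out of the replicate 2 and B cell libraries only, so the replicate 1 libraries kept theirs. Other results there, and all results of chromosome 6, are given with all sites. Where a result differs between replicate numbers, the replicate 1 values stand beside it.

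Close to the bait nearly all sites were captured on both days, which leaves the captured share little room to differ. The window of 100 kb that holds the bait had 99.97% and 100% of its sites captured at matched depth on day 6, against 98.7% and 96.8% on day 0. The adjoining window on the low side had 92.6% and 91.7% of its sites captured on day 6, and 92.3% and 91.2% on day 0. Across the 100 windows within 5 Mb, the rank correlation of reads was 0.86 between the day 6 libraries and 0.90 between the day 0 libraries. It was 0.85 to 0.87 for the pairs of a day 6 with a day 0 library, a description of windows that share neighbours and depth. Beyond 5 Mb the same correlation was 0.48 between the day 6 libraries, 0.71 between the day 0 libraries and 0.53 to 0.55 between days. The day 6 pair thus had the lowest value, but it holds the shallowest library, and the part of depth was not tested.

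Chromosome 6 held 72.1% and 67.9% of reads on day 6, against 73.5% and 74.5% on day 0. Each day 6 library lay under each day 0 library, with means of 70.0% ± 2.99 on day 6 and 74.0% ± 0.661 on day 0 (SD, n = 2 each). The two-sided exact permutation p was 0.333, the smallest that 2 libraries against 2 can give, so no single share in this comparison can pass a threshold of 0.05. Counted in captured sites at matched depth, the share on chromosome 6 was 43.1% and 47.3% on day 6, and 43.1% and 46.3% on day 0, and the groups overlapped. Within 1 Mb of the bait lay 68.3% and 62.4% of chromosome 6 reads on day 6, and 68.6% and 66.2% on day 0, again with overlap. Of the captured chromosome 6 sites at matched depth, 13.4% and 14.3% lay there on day 6, against 10.4% and 10.6% on day 0, the opposite direction and with no overlap (exact permutation p = 0.333). The low-coordinate side held 62.0% and 62.2% of chromosome 6 reads on day 6, and 60.6% and 61.3% on day 0. That order turned round when all sites within 100 kb were left out: 65.5% and 64.9% on day 6, and 66.8% and 67.2% on day 0.

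The decline of read density with distance, as the slope of log2 reads per site on log2 distance from 100 kb to 20 Mb, was -1.34 and -1.30 on day 6, and -1.39 and -1.36 on day 0. The groups did not overlap (exact permutation p = 0.333). From 100 kb to 5 Mb they did, at -1.51 and -1.42 on day 6, and -1.45 and -1.42 on day 0. The groups were thus apart only when sites over 5 Mb away were counted.

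A larger share of reads lay 5 to 20 Mb from the bait on the low side on day 6. Between 5 and 10 Mb on that side lay 0.768% and 1.09% of chromosome 6 reads on day 6, against 0.499% and 0.572% on day 0. Between 10 and 20 Mb lay 2.25% and 2.90% on day 6, against 1.45% and 1.57% on day 0. In both bands each day 6 library lay above each day 0 library. On the high side, sites over 20 Mb away took 3.62% and 5.01% on day 6, against 2.88% and 3.14% on day 0, and sites 10 to 50 kb away took 8.68% and 6.20% on day 6, against 11.2% and 9.91% on day 0. When the reads of 20 bands (10 distances on each side) were fitted with edgeR's quasi-likelihood test over all 9 Pparg libraries, these 4 bands passed, 20% of the bands tested.

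The low-side band of 5 to 10 Mb rose by 0.77 ± 0.21 on the log2 scale (SE, edgeR adjusted p = 0.0171), and that of 10 to 20 Mb by 0.76 ± 0.19 (edgeR adjusted p = 0.0145). The high-side band over 20 Mb rose by 0.51 ± 0.17 (edgeR adjusted p = 0.0496), and the high-side band of 10 to 50 kb fell by 0.50 ± 0.16 (edgeR adjusted p = 0.0420). Bands are shares of 1 total, so a higher share in one goes with lower shares elsewhere. With the day 6 and day 0 libraries alone the low-side band of 5 to 10 Mb did not pass (edgeR adjusted p = 0.159), and the other 3 did (0.0421 each). Without day 0 replicate 1 none of the 20 bands passed, and without day 6 replicate 2, the library of lowest depth, the 2 low-side bands remained, at 0.52 and 0.57. Replicate 1 of day 6 over replicate 1 of day 0 alone also ran upward in both low-side bands, as the values above show.

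**Figure D1:**
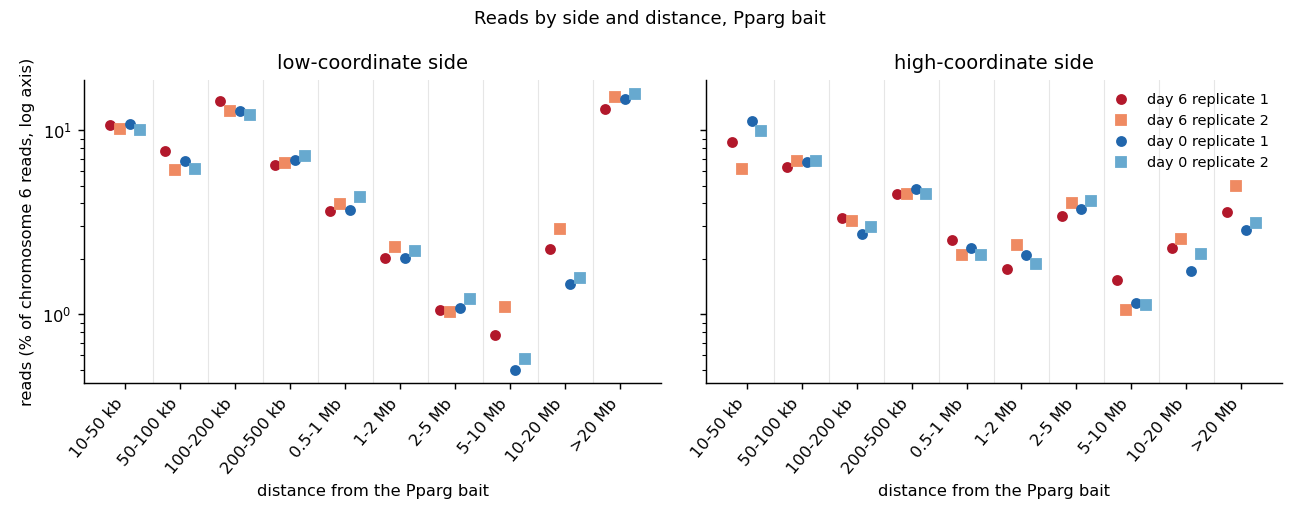
Reads on chromosome 6 by side of the Pparg bait and distance from it, as percent of chromosome 6 reads on a log axis, 1 point per library. Both day 6 libraries lie above both day 0 libraries in the low-side bands of 5 to 10 and 10 to 20 Mb and in the high-side bands of 10 to 20 Mb and over 20 Mb.

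The 4C signal of day 6 landed on fewer sites. On chromosome 6, 3506 and 2942 sites were captured at matched depth on day 6, against 4874 and 4458 on day 0. From 0.5 to 5 Mb the deficit was larger at longer distances. On the high side it was smaller again farther out, with ratios of day 6 to day 0 means of 0.714 from 5 to 10 Mb, 0.743 from 10 to 20 Mb and 0.819 over 20 Mb. Within 200 kb nearly all sites were captured in every library, at 92.1% to 100% per band. Between 0.5 and 1 Mb, 55.7% and 47.6% of sites were captured on day 6, against 65.1% and 59.1% on day 0. Between 2 and 5 Mb the shares were 19.99% and 16.4% on day 6, and 29.0% and 27.1% on day 0, a ratio of means of 0.649. Over 20 Mb away, both sides together, they were 4.88% and 4.02% on day 6, and 7.85% and 7.03% on day 0, a ratio of 0.599.

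On the low side between 10 and 20 Mb, by contrast, 8.04% and 6.41% of sites were captured on day 6, and 6.91% and 6.22% on day 0, so that the groups overlapped at a ratio of 1.10. Between 5 and 10 Mb on that side the ratio was 0.997. With both sides together, 5 of 10 bands had each day 6 library under each day 0 library, 50% of the bands, and 1 of 10 had both above, 10%, which was the band of 10 to 50 kb at 99.99% and 100% on day 6 against 98.8% and 97.0% on day 0. An edgeR fit of captured sites at equal depth over 20 bands and 19 other chromosomes called 0 of 39 features over the 9 libraries, and none had an unadjusted p under 0.05. With the day 6 and day 0 libraries alone it called 4 (the low-side bands of 2 to 5 Mb and over 20 Mb, and chromosomes 11 and 19, all lower on day 6).

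**Figure D2:**
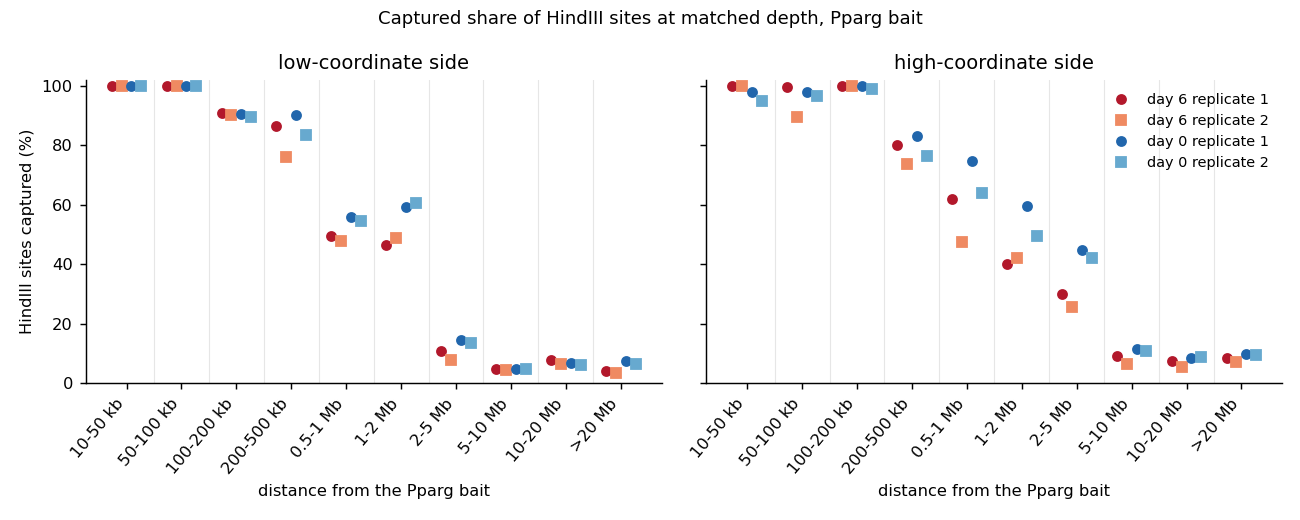
Percent of HindIII sites of chromosome 6 captured at 42094 reads per library, by side and distance from the Pparg bait, 1 point per library. All 4 libraries are at 89.5% or more within 100 kb. The day 6 points lie below the day 0 points from 0.5 to 5 Mb and over 20 Mb, and overlap them from 5 to 20 Mb on the low side.

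Along chromosome 6, reads were also compared in windows of 1 Mb. Of 147 windows, 9 passed in edgeR (6.12%), 4 higher and 5 lower on day 6, while 32 had an unadjusted p under 0.05 (21.8%). With the day 6 and day 0 libraries alone edgeR called 0 of the 147, with 26 at an unadjusted p under 0.05, and with the replicate number as a block it called 4, all lower. Values are in CPM, reads scaled to a common total over the tested windows by edgeR with TMM (trimmed mean of M-values). Windows are given by their start in mm9, and no gene of that build was at hand to name in them.

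The clearest loss was at 38 to 39 Mb, 76.9 Mb from the bait on the low side. This window had 1203 and 1276 CPM on day 6, against 4639 and 4191 CPM on day 0. Its fall was 1.84 ± 0.41 on the log2 scale (edgeR adjusted p = 0.00154). It held when any 1 of the 9 libraries was left out except either day 0 library. The window at 30 to 31 Mb had 2061 and 996 CPM on day 6, against 4826 and 4786 CPM on day 0 (log2 change -1.60 ± 0.38, edgeR adjusted p = 0.00183). Captured sites told the same at matched depth: at 38 to 39 Mb, 4.71% and 6.27% of 303 sites were captured on day 6, against 20.4% and 16.1% on day 0. Over the segment from 30 to 40 Mb as a whole, 4.73% and 4.59% of 3250 sites were captured on day 6, against 13.1% and 10.4% on day 0, the lowest ratio (0.397) of the 15 segments of 10 Mb.

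The other windows that fell were 1 at 72 to 73 Mb and 2 close to the bait. At 72 to 73 Mb there were 3937 and 3051 CPM on day 6, against 6415 and 7065 CPM on day 0 (log2 change -0.94 ± 0.29, edgeR adjusted p = 0.0335). At 119 to 120 Mb, 4.13 Mb above the bait, there were 6338 and 8436 CPM on day 6, against 11992 and 12346 CPM on day 0 (log2 change -0.73 ± 0.19, edgeR adjusted p = 0.00546). At 113 to 114 Mb, 1.87 Mb below it, there were 14148 and 11736 CPM on day 6, against 20368 and 18383 CPM on day 0 (log2 change -0.58 ± 0.16, edgeR adjusted p = 0.00847).

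Of the 4 windows that rose, 2 lay in the low-side stretch. At 104 to 105 Mb, 10.9 Mb below the bait, there were 1213 and 1214 CPM on day 6, against 296 and 284 CPM on day 0 (log2 change 2.07 ± 0.63, edgeR adjusted p = 0.0327). At 95 to 96 Mb there were 3106 and 2833 CPM on day 6, against 923 and 1340 CPM on day 0 (log2 change 1.40 ± 0.45, edgeR adjusted p = 0.0335). The 2 on the high side were at 133 to 134 Mb (2079 and 841 CPM on day 6, against 554 and 256 CPM on day 0) and at 138 to 139 Mb (1644 and 1619 CPM on day 6, against 454 and 467 CPM on day 0). Captured sites at matched depth were also more on day 6 in both libraries at 104 to 105 Mb, 3.88% and 2.79% against 1.70% and 1.26% on day 0. Fitted on captured sites at matched depth, 3 of the 9 windows did not pass: those at 113 Mb (log2 change -0.08, edgeR adjusted p = 0.846), 119 Mb (-0.36, edgeR adjusted p = 0.234) and 133 Mb (1.17, edgeR adjusted p = 0.0986). Without either day 0 library no window of 1 Mb passed. Without day 2 replicate 2 only the windows at 30 and 38 Mb did, and without day 2 replicate 1 only these and the windows at 113 and 119 Mb.

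**Figure D3:**
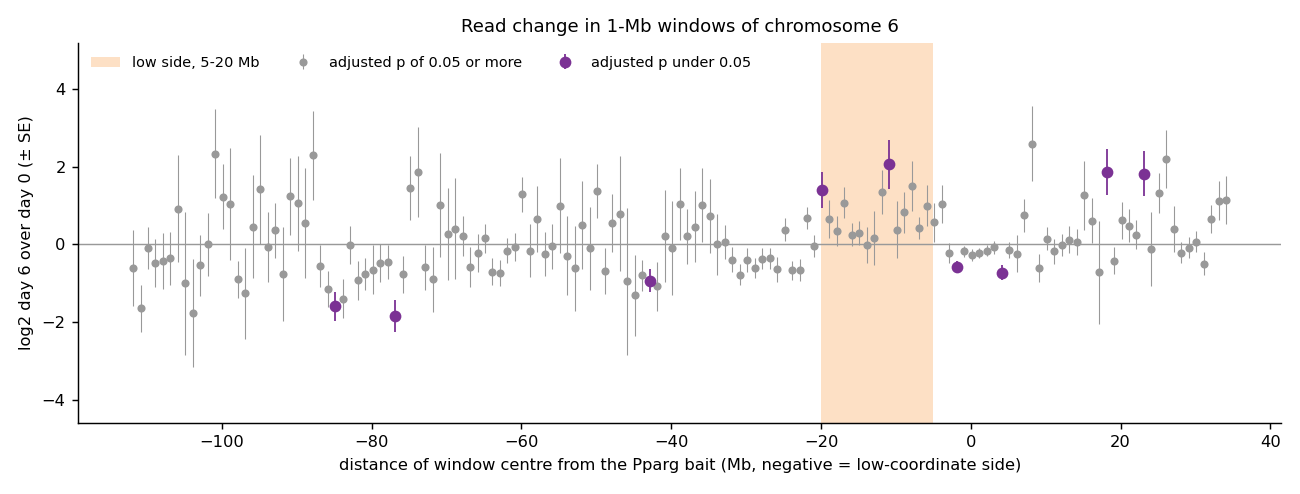
Log2 change of reads, day 6 over day 0, in 147 windows of 1 Mb of chromosome 6 by distance of the window's centre from the Pparg bait, with edgeR standard errors as bars. Purple points passed an adjusted p of 0.05: the 5 that fell lie between 84.9 Mb below and 4.13 Mb above the bait, and the 4 that rose between 19.9 Mb below and 23.1 Mb above it. The shaded stretch is the low side from 5 to 20 Mb.

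In windows of 100 kb, 4 of 1376 passed in edgeR (0.291%), and 110 had an unadjusted p under 0.05 (7.99%). At 136.1 to 136.2 Mb, 219 and 18 reads fell in the window on day 6, against 2 and 3 reads on day 0 (log2 change 6.32 ± 1.59, edgeR adjusted p = 0.0294). At 110.4 to 110.5 Mb there were 226 and 1 reads on day 6 and 0 and 0 on day 0, and at 129.7 to 129.8 Mb 79 and 9 reads on day 6 and 0 and 0 on day 0. At 73.1 to 73.2 Mb there were 0 and 0 reads on day 6, against 626 and 89 on day 0. A floor of 3 reads over the libraries of an empty group covers counting error only, not the spread between libraries. Against it, pooled day 6 reads were 87.7-fold higher at 129.7 Mb and pooled day 0 reads 79.7-fold higher at 73.1 Mb. All 3 passed (edgeR adjusted p = 0.0294 for each), but nearly all day 6 reads at 110.4 Mb came from replicate 1, and without that library this window did not pass (edgeR adjusted p = 0.481).

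Each window that passed was also read in every day 1, day 2 and B cell library. On day 1 the reads were 352 and 18 at 136.1 Mb, 370 and 11 at 110.4 Mb, and 343 and 1 at 129.7 Mb. On day 2, in that order, they were 114 and 97, 117 and 10, and 244 and 129. B cells had 56, 47 and 14. At 73.1 Mb they were 80 and 17 on day 1, 161 and 52 on day 2, and 36 in B cells. Day 0 was thus the group at or near 0 in the windows higher on day 6, and day 6 at 73.1 Mb. The reads of such windows lay at few sites. At 136.1 Mb, 12.9% and 10.5% of its 38 sites were captured at matched depth on day 6, against 0.109% and 1.28% on day 0. At 73.1 Mb none of 33 sites was captured on day 6, against 16.5% and 16.3% at matched depth on day 0. DESeq2 called 30 windows, and the fit with the day 6 and day 0 libraries alone called 0, with 76 at an unadjusted p under 0.05. Without either day 0 library, without day 6 replicate 1 or without day 2 replicate 2 the count was also 0, and without day 6 replicate 2 it was 2.

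Among the windows closest to passing, those higher on day 6 were at 107.0, 141.9, 86.1, 125.8 and 141.1 Mb (edgeR adjusted p = 0.196 for the first and 0.304 for the others). Those lower on day 6 were at 28.6, 52.8, 30.8, 30.2 and 39.2 Mb (edgeR adjusted p = 0.304 to 0.372), 3 of them in the segment of 30 to 40 Mb. At 30.2 Mb, for instance, 1 and 4 reads were counted on day 6, against 1060 and 116 on day 0. At 52.8 Mb there were 31 and 1 on day 6, against 1038 and 107 on day 0.

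Over all tested windows of 100 kb, both day 6 libraries lay above both day 0 libraries in 190 (13.8%) and below in 296 (21.5%). In the 150 tested windows on the low side from 5 to 20 Mb the counts were 40 above (26.7%) and 12 below (8%), with a median log2 change of 0.88. In the 145 windows at the same distances on the high side they were 24 above (16.6%) and 19 below (13.1%), with a median of 0.21. In the 839 windows over 20 Mb on the low side they were 85 above (10.1%) and 224 below (26.7%), with a median of -0.35.

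Over 1 Mb from the bait, the window with the highest captured share on day 6 was at 114.3 to 114.4 Mb, 1.02 Mb below the bait, with 51.0% and 68.4% of 38 sites captured at matched depth on day 6, against 70.8% and 76.6% on day 0. It came second on day 0, where the window at 113.6 to 113.7 Mb led with 79.4% and 75.9%, against 67.3% and 33.3% on day 6. The 5 leading windows of each day lay from 113.4 to 117.9 Mb, and 2 were in both sets.

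Far from the bait, a smaller share of day 6 reads lay in the windows that were most captured on other days. Windows of 1 Mb were ranked by how often their sites were captured in the replicate 1 libraries of days 1 and 2. They were cut into 4 equal sets. No day 6 or day 0 value entered, but the ranking libraries have other-chromosome sites in common with the compared ones. Day 6 replicate 1 shared 6.66 times the independent number with day 1 replicate 1, and day 0 replicate 1 shared 3.84 times with day 2 replicate 1. The part of this sharing in the sets was not tested. On chromosome 6 over 20 Mb from the bait, the most captured set of windows took 58.5% and 52.4% of reads on day 6, against 62.3% and 62.6% on day 0. The least captured set took 5.02% and 4.07% on day 6, against 2.97% and 3.10% on day 0. The groups did not overlap in either set, and the exact permutation p was 0.333 for each, the smallest possible. Per site at matched depth, capture in the top set was 11.2% and 9.18% on day 6, against 19.5% and 17.7% on day 0. In the lowest set it was 1.18% and 0.778% on day 6, against 1.08% and 0.806% on day 0, with overlap.

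On other chromosomes these sets ran the same way. Their most captured set took 45.6% and 47.1% of other-chromosome reads on day 6, against 55.3% and 57.4% on day 0. Their least captured set took 9.72% and 8.33% on day 6, against 5.99% and 4.77% on day 0. Neither set overlapped (exact permutation p = 0.333 each). Single sites gave the opposite order: the 100 most-read other-chromosome sites of a library held 12.4% and 16.8% of its other-chromosome reads on day 6, against 6.28% and 10.2% on day 0, counted over all reads and so at unequal depth.

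**Figure D4:**
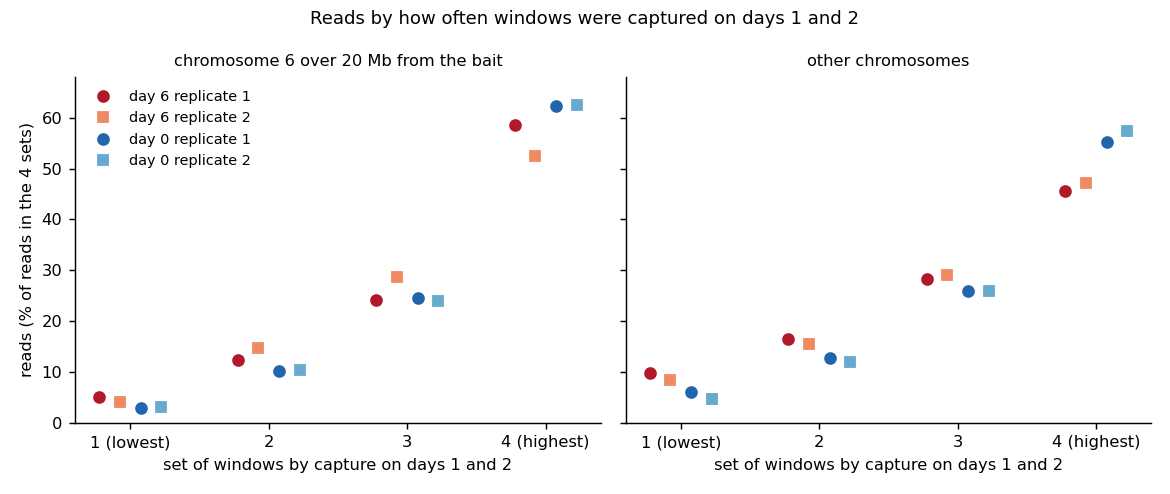
Share of reads in 4 sets of 1-Mb windows ranked by capture on days 1 and 2, on chromosome 6 over 20 Mb from the Pparg bait (left) and on other chromosomes (right), 1 point per library. In the top set both day 6 libraries lie below both day 0 libraries, and in the lowest set above them.

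On other chromosomes, 13063 and 3278 sites were captured on day 6, against 27159 and 10873 on day 0. At matched depth these were 4637 and 3278 on day 6, and 6432 and 5180 on day 0, a ratio of means of 0.682 with no overlap (exact permutation p = 0.333, the smallest possible). Without the shared sites, which were left out of replicate 2 but not of replicate 1, the matched depth was 40826 reads. The counts were then 4565 and 2395 on day 6, and 6308 and 4808 on day 0. With all sites kept, at 42094 reads, 49.5% and 42.5% of captured sites had a single read on day 6, against 63.8% and 53.5% on day 0. Counting sites with at least 2 reads at matched depth, the groups overlapped, at 2329 and 1886 on day 6, and 2324 and 2415 on day 0. In replicate 1 the deficit of day 6 thus lay among sites of a single read. In replicate 2, sites with at least 2 reads were fewer on day 6 as well.

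Few of these sites recurred. At matched depth the day 6 libraries had 52 other-chromosome sites in common, 1.13% of replicate 1's and 1.59% of replicate 2's, 2.67 times the independent number. The day 0 libraries had 160 in common, 2.49% of replicate 1's and 3.08% of replicate 2's, 3.72 times the independent number. Each pair of a day 6 with a day 0 library had more sites in common than the day 6 pair. These pairs had 78 to 324, which is 2.87 to 14.8 times the independent number. The 324 were common to the replicate 2 libraries of the 2 days, so recurrence did not follow the day. Only 6 sites were captured in all 4 libraries. On chromosome 6 over 1 Mb from the bait, 535 sites were common to the day 6 libraries and 1322 to the day 0 libraries, and 185 to all 4. The pairs of a day 6 with a day 0 library had 763 to 905 in common there.

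Whole chromosomes differed between the days in their captured share. A multiple is a chromosome's captured share over the mean of all other-chromosome sites of the same library, at matched depth. Chromosome 11 had multiples of 1.00 and 1.11 on day 6, against 1.37 and 1.44 on day 0. Chromosome 19, the most captured in all 4 libraries but day 6 replicate 1, had 1.25 and 1.49 on day 6, against 1.63 and 1.71 on day 0. Chromosome 17 had 1.11 and 0.977 on day 6, against 1.25 and 1.27 on day 0.

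In the other direction, chromosome 1 had multiples of 1.09 and 1.14 on day 6, against 0.936 and 0.904 on day 0, and chromosome 3 had 1.06 and 1.02 on day 6, against 0.888 and 0.871 on day 0. Chromosome 10 had the highest multiple of day 6 replicate 1, with 1.32 and 1.20 on day 6, against 1.11 and 1.08 on day 0. In all, both day 6 libraries lay above both day 0 libraries for 7 of 19 chromosomes (36.8%) and below for 7 (36.8%). Without the shared sites 16 of the 19 did not overlap. The X chromosome stayed the least captured, at 0.473 and 0.351 on day 6, and 0.396 and 0.360 on day 0. No difference of a chromosome can pass with 2 libraries a day (exact permutation p = 0.333, adjusted over the 19 chromosomes 0.452 at the smallest).

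Chromosomes 11, 17 and 19 are rich in genes, with 37.1 to 44.4 protein-coding genes per 1000 HindIII sites. Across the 19 chromosomes the rank correlation of the captured share with gene density was 0.38 and 0.26 on day 6, against 0.53 and 0.56 on day 0. This is a description of chromosomes that share a library and its depth. Chromosome 7, with 46.1 genes per 1000 sites, went the other way, with multiples of 0.866 and 0.865 on day 6, against 0.776 and 0.836 on day 0.

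**Figure D5:**
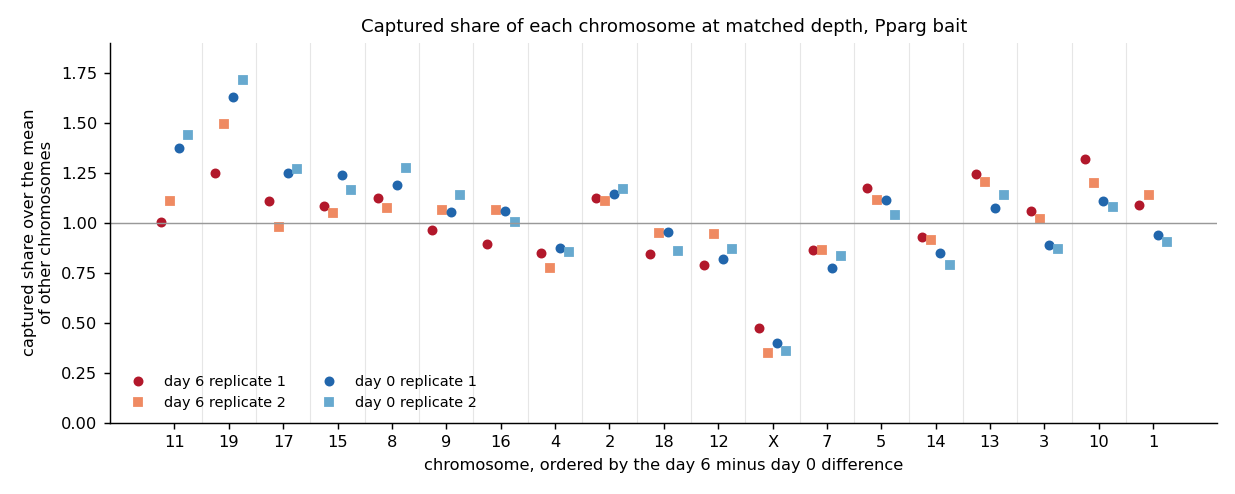
Captured share of each chromosome at matched depth, as a multiple of the mean over all other-chromosome sites of the library, 1 point per library, with chromosomes ordered by the day 6 minus day 0 difference. Chromosome 11 lies at 1.00 and 1.11 on day 6, against 1.37 and 1.44 on day 0, and both day 6 points of chromosome 1 lie above its day 0 points.

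At the scale of 500 kb, 0 of 1969 other-chromosome windows passed in edgeR (0%), and 130 had an unadjusted p under 0.05 (6.60%). DESeq2 also called 0, with 20 at an unadjusted p under 0.05, and without the shared sites the count stayed at 0. The windows nearest to passing were 1 on chromosome 18 at 61.0 to 61.5 Mb, with 0 and 0 captured sites on day 6 and 19 and 7 on day 0, and 1 on chromosome 1 at 38.0 to 38.5 Mb, with 1 and 0 on day 6 and 24 and 8 on day 0. Higher on day 6, without passing, was chromosome 1 at 189.0 to 189.5 Mb, with 12 and 4 captured sites on day 6 and 6 and 0 on day 0 (edgeR adjusted p = 0.160 for all of these).

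With windows of 1 Mb on other chromosomes, an alternative to those of 500 kb, 2 passed. This size was fitted over the 9 libraries with all sites only, and not without the shared sites or with a library left out. On chromosome 1 at 189 to 190 Mb, 17 and 7 of 368 sites were captured on day 6, against 7 and 1 on day 0 (log2 change 2.71 ± 0.56, edgeR adjusted p = 0.00190). On chromosome 11 at 69 to 70 Mb, 1 and 0 of 212 sites were captured on day 6, against 28 and 6 on day 0 (log2 change -3.74 ± 0.91, edgeR adjusted p = 0.0361).

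The most captured other-chromosome windows were the same pair in each of the 4 libraries, and neither passed between the days. Chromosome 10 at 117.0 to 117.5 Mb had multiples of 28.5 and 27.2 at matched depth on day 6, and 20.6 and 21.2 on day 0. Its captured share itself was not higher on day 6, at 17.0% and 11.5%, against 17.1% and 14.1% on day 0. The next window below, at 116.5 to 117.0 Mb, had 17.9 and 16.1 on day 6, and 11.6 and 15.7 on day 0. Chromosome 2 at 77.5 to 78.0 Mb, chromosome 11 at 3.0 to 3.5 Mb and chromosome 19 at 46.0 to 46.5 Mb followed. Of these, the chromosome 11 window had 4.30 and 7.17 on day 6, and 10.5 and 6.20 on day 0.

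Set beside the other baits, the day 6 changes of Pparg were not shown to be its own. Captured other-chromosome sites at matched depth changed by -0.57 on the log2 scale for Pparg, by -1.18 for Lpin1, a phosphatidate phosphatase of lipid synthesis, and by -0.15 for Ifng, the interferon of lymphocytes. The difference of Pparg from Lpin1 was 0.61 and from Ifng -0.42 (two-sided exact permutation p = 0.556 and 0.444, adjusted over 14 tests 0.778 for both). On the bait chromosome, the captured share from 1 to 5 Mb at matched depth changed by -0.52 (log2) for Pparg, -1.43 for Lpin1 and 0.13 for Ifng. Over 20 Mb it changed by -0.75, -1.94 and -0.0056. No difference between baits in these shares passed (exact permutation p = 0.167 to 0.389, adjusted 0.778). The share of chromosome 6 reads changed by -3.97 percentage points for Pparg, beside -12.7 for the bait chromosome of Lpin1 and -2.42 for that of Ifng. The share of the bait site changed by 49.2 percentage points for Pparg, 30.1 for Ifng and -10.9 for Lpin1. The smallest p over the 14 tests was 0.0556, for this share against Lpin1, and 0.0556 is also the smallest these tests allow.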

How the data were processed

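The authors deposited counts: whole numbers of reads at each HindIII site, with no normalisation, 2 files for each 3T3-L1 sample. The submitters' processing notes name Bowtie, with no version, and the build mm9; filters and removal of PCR duplicates are not given in the sources used here. The most-read site of a library defined the bait, and a zone of 10 kb to either side was excluded. The members, bands, windows and lists were chosen with earlier results of these data known.

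Reads in windows of 100 kb and 1 Mb and in bands of chromosome 6, and captured sites in windows of 500 kb elsewhere, were tested with edgeR 4.0.16 (R 4.3.3, robust quasi-likelihood fit, 9 Pparg libraries in 5 groups, filterByExpr on chromosome 6 and a mean of at least 3 captured sites elsewhere). TMM scaling was used for windows and chromosome 6 totals for bands. Benjamini-Hochberg adjustment was made over all features of a fit, with a threshold of 0.05. Fits were tested on simulated data. Two-sided exact permutation tests served for single values (SciPy 1.17.1). Windows of 1 Mb as a comparison of their own, the 20-band fits, the 4 sets of windows ranked by capture and the removal of shared sites were chosen after seeing the data. DESeq2 1.42.0 was an alternative. Named windows were those passing, up to 5 per direction on chromosome 6 and 3 elsewhere with the smallest p among those not passing whose groups do not overlap, those at the bait, and the 5 with the highest captured share. Replicate numbers were checked for pairing: deviations of same-numbered libraries from their day means correlated at 0.017 to 0.050 between days over 100-kb windows of chromosome 6. No pairing was therefore assumed, although replicate 2 libraries share captured sites. Depth outside the zone was 42094 to 2041336 reads. Reads lack molecular identifiers, and intervals and floors of 3 counts cover counting error only.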

Additional observations from a re-analysis of the deposited data

Results flagged for a closer look

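Reads at the 3 HindIII sites of the mitochondrial genome were set apart because the comparison of single chromosomes leaves them out. Each library also exceeded the 3 counts that chance absence allows. In the totals of other-chromosome sites and reads they are included. The day 6 libraries held 218 and 13 such reads, and the day 0 libraries 700 and 111. These were 0.105% and 0.0962% of other-chromosome reads on day 6, and 0.130% and 0.168% on day 0, and each day 6 library lay under each day 0 library (2 libraries a day, not tested).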

How the results depend on the processing

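Deviations of same-numbered libraries did not correlate above 0.1, so no blocked value stands beside most comparisons, although replicate 2 libraries have captured sites in common. With the number as a block, edgeR called 0 windows of 100 kb on chromosome 6 (4 without it), 4 of 1 Mb (9 without it), 0 elsewhere and 5 bands (4 without it). Counts of 100-kb windows moved to 30 with DESeq2, and to 0 with the day 6 and day 0 libraries alone, after thinning, with captured sites in place of reads and at 200 kb, and ranged from 0 to 4 without 1 library. Those of 1 Mb moved to 22 with DESeq2 and 0 with the 4 libraries alone, and ranged from 0 to 12 without 1 library. Bands ranged from 0 to 4 without 1 library, and 3 passed with the 4 libraries alone. At 1 Mb, 2 windows of other chromosomes passed. Captured bands and chromosomes went from 0 calls to 4 with the 4 libraries alone and to 3 after scaling by all captured sites, and without thinning 3 of 10 distance bands, not 6, had groups that did not overlap.

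Counting captured sites in place of reads reversed the difference of the share on chromosome 6 (5.26 percentage points with all reads, 0.497 at matched depth, against -3.97 for reads), within 1 Mb (5.05 and 3.33, against -2.06) and on the low side (-5.11 and -3.41, against 1.14; leaving out 100 kb gave -1.80). The slope's difference of 0.0576 became -0.0493 for captured shares and -0.0274 from 100 kb to 5 Mb, and the single-read share's 8.64 percentage points became -12.7 at matched depth. Leaving out 1 library gave -6.09 to -1.86 points on chromosome 6, -5.02 to 0.892 within 1 Mb, and -2528 to -1169 captured sites elsewhere. Causes were not tested, apart from fewer libraries in a fit. Named windows and bands kept their side of the threshold in 387 of 498 checks, fell short in 101 and newly passed in 10, with none reversed. With 2 libraries a day and 42094 reads in the shallowest, changes at single far sites were not detectable.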

Other observations

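Inside the most captured windows of other chromosomes lay a sharply bounded stretch of chromosome 10, from 116.8 to 117.2 Mb in mm9, whose limits, the run of 50-kb bins with over 25% of sites captured on average, were set after its values were seen. Of its 104 HindIII sites, 69.2% and 21.2% were captured with all reads on day 6, against 75.0% and 43.3% on day 0. The 0.4 Mb below it, with 129 sites, had 6.20% and 2.33% captured on day 6, and 6.20% and 10.9% on day 0. The 0.4 Mb above it, with 124 sites, had 6.45% and 3.23% on day 6, and 11.3% and 14.5% on day 0. As a share of other-chromosome reads the stretch held 1.09% and 1.09% on day 6, against 0.838% and 0.486% on day 0, and the groups did not overlap. Its captured multiple was 9.93 in the B cell library, against 16.8 to 50.1 over the 8 Pparg libraries of 3T3-L1. The libraries of the Lpin1 bait, on chromosome 12, showed the same stretch. Its multiple there was 13.5 in the B cell library and higher in every 3T3-L1 library, up to 54.2. The share of other-chromosome reads in the stretch was also lower in B cells under both baits (1 B cell library each, not tested). For Pparg it was 0.0726% in B cells, against 0.486% to 1.09% in 3T3-L1. For Lpin1 it was 0.0399% in B cells, against 0.547% to 1.31% in 3T3-L1. The Ifng bait lies on chromosome 10 too, at 117870359 in mm9, above the stretch and its upper flank. Of the 60 sites within 100 kb of that bait, 2 and 0 were captured from Pparg on day 6, and 2 and 3 on day 0. Multiples with all reads fall as a library gets deeper, so they are set side by side as a range only, and no cause was tested.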
